A study of Mus musculus with 8 samples.

Results

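The genes described here are developmental transcription factors of the homeobox, forkhead, basic helix-loop-helix and caudal families, a group known as targets of Polycomb repression. A list of 56 such genes was taken by name. Of these, 55 were named by at least 1 probe set that carried a single gene symbol, through 93 probe sets, out of 18193 genes and 34945 such probe sets on the array. All 93 were kept whatever their signal. Pax2 had no such probe set, and its signal was not analysed here.

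The signals came from 8 Affymetrix mouse arrays in 2 groups of 4. All cells were Dlk-positive hepatoblasts, the fetal liver cells that give rise to hepatocytes and bile duct cells. They came from Ink4a-Arf-null embryos at day 14.5, so the controls lacked that locus as well. The control group had been transduced with EGFP and the other group with Bmi1, 12 to 18 h after a magnetic sort, and both were grown on collagen type IV with hepatocyte growth factor (50 ng/ml) and epidermal growth factor (20 ng/ml). Flow cytometry was used to collect the cells at day 28, and the RNA of 10000 cells went into a cDNA synthesis of 2 cycles. The series describes 4 independent experiments, numbered 1 to 4 in each group. Neither the vector nor the promoter that drove Bmi1 is named in the labels.

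Polycomb complexes keep developmental regulators silent in cells that have no use for them. Polycomb repressive complex 2 methylates histone H3 around their CpG-rich start sites, and Polycomb repressive complex 1, to which Bmi1 belongs, compacts that chromatin and ubiquitylates a second histone. Genes of the Pax, Lhx, Irx, Dlx, Nkx and Fox families are textbook examples: each instructs a particular tissue, such as brain, eye, limb, kidney or heart, and most have no known role in a hepatocyte. A few of them, among them Msx, Meis, Foxf and Lhx2, are known from the mesenchyme of fetal organs, including the stellate cells of liver.

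The labelled tissue was checked first. Of 10 hepatocyte and hepatoblast markers, 9 had a probe set, and all 9 were above background on all 8 arrays. So were 5 of 5 bile duct markers, 9 of 14 stellate cell and fibroblast, 5 of 7 mesothelial, 2 of 10 endothelial, 3 of 5 blood and 2 of 10 nervous system markers. Signal for Bmi1 itself did not rise with the label. One of its 2 probe sets read 802, 395, 568 and 306 on control arrays 1 to 4 and 318, 273, 328 and 197 on arrays 1 to 4 labelled Bmi1, and in 4 of 4 pairs the array labelled Bmi1 had the lower value (log2 difference -0.89, limma adjusted p = 0.806, and 0.0330 with the replicate number as a block, in a range of 0.0330 to 0.99998 over all alternatives). The other was also lower in 4 of 4 pairs. Where these probe sets lie relative to the introduced sequence is not known here, so they may not register it, and they cannot show whether the labels are right. Groups are called by their labels, and every direction below is that of the arrays labelled Bmi1 minus the arrays labelled control. Replicates 1 and 2 also stood apart from replicates 3 and 4 in both groups. The BioC 3' hybridisation control read 198 to 274 on the former and 97.0 to 119 on the latter. The ratio of the 3' to the 5' Gapdh control probe set, which rises as RNA breaks down, was 3.10 on control 1 and 1.65 to 1.96 on the other arrays.

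The sequences at the start sites of the genes show a feature that most of them share. Promoters of 250 bases before and 50 bases after each start were taken from RefSeq on build GRCm38.p6, and 41 of the 56 listed genes had at least 1, Pax2 among them, giving 50 promoters. No entry was matched for Dlx3, Dlx4, Dlx5, Dlx6, Irx1, Irx5, Irx6, Pax3, Lhx5, Otx1, Pitx1, Foxc2, Foxf1, Foxq1 and En2. At the Foxd1 probe set and at 1 of 2 Foxc1 probe sets the groups did not overlap. Irx3 was 1 of 10 genes above background on all 8 arrays, and Nkx6-1 was 1 of 8 above it on none. The promoters of these 4 genes are shown as examples. They are written 5′ to 3′ on the strand of the gene, and the capitals mark each CpG, the dinucleotide that DNA methylation and CpG-binding proteins read. Foxc1 lies at chr13:31806396-31806695 on the plus strand, Foxd1 at chr13:98353995-98354294 on the plus strand, Irx3 at chr8:91801605-91801904 on the minus strand and Nkx6-1 at chr5:101664662-101664961 on the minus strand.
Foxc1: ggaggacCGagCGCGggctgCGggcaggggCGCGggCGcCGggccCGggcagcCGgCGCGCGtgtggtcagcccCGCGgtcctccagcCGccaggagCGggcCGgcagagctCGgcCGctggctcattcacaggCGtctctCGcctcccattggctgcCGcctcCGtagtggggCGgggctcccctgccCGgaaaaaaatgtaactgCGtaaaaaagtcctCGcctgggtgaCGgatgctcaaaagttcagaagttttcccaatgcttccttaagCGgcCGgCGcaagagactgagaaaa
Foxd1: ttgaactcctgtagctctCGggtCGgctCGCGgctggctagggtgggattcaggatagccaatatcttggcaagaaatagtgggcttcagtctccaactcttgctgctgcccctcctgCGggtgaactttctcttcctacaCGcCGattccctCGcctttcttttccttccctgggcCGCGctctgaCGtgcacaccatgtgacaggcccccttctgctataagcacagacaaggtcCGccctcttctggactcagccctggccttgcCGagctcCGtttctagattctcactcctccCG
Irx3: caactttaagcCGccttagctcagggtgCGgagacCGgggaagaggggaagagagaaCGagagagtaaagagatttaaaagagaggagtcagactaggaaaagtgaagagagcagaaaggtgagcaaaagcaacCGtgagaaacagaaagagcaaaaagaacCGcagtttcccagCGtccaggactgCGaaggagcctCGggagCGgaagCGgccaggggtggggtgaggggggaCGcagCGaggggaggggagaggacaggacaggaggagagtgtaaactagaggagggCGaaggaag
Nkx6-1: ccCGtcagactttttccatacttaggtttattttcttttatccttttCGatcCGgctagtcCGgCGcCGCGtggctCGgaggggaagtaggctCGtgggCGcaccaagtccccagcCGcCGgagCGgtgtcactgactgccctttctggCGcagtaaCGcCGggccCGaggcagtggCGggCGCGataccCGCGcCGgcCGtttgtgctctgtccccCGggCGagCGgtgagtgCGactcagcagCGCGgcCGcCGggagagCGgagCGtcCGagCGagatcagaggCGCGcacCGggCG

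The Nkx6-1 promoter held 40 CpG, the Foxc1 promoter 32, the Foxd1 promoter 15 and the Irx3 promoter 14. These 4 are examples and show no order. Promoters of genes never above background and of genes above it on all 8 arrays both had a median of 16 CpG. Their median ratios of observed to expected CpG were 0.581 and 0.748, in that order. Over all 50 promoters of listed genes the median was 19 CpG, against 7 over the 32851 promoters of the RefSeq table, and the median GC content was 60.3% against 52.7%. The ratio of observed to expected CpG, which is the CpG count times the length over the product of the C and G counts, had a median of 0.788 in the members and 0.384 in all promoters. CpG-rich promoters, defined as at least 50% GC with a ratio of at least 0.6, made up 34 of the 50 (68.0%) and 33.5% of all. The motif TATAAA, searched on both strands and sharing no bases with CG, was found in 3 of the 50 (6.0%) and in 13.6% of all promoters. None of the 4 printed promoters held it.

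**Figure D1:**
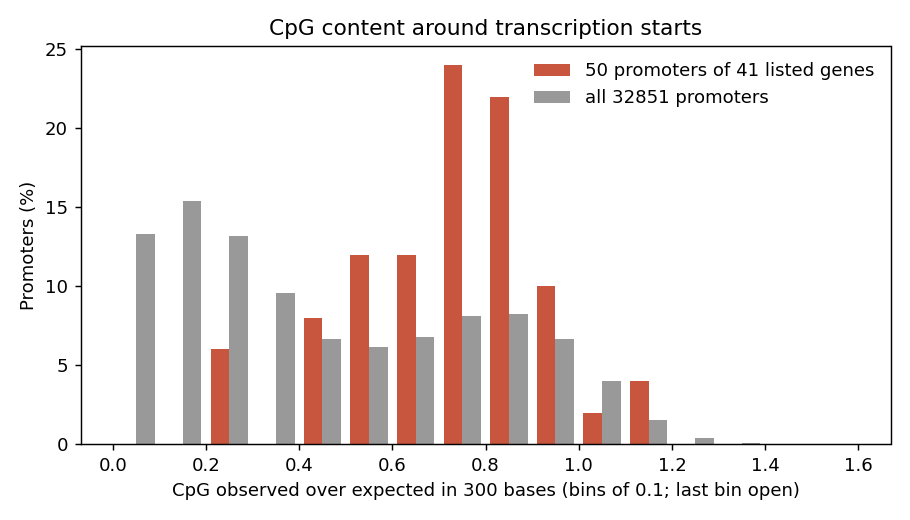
The x axis is the observed over expected CpG ratio in the 300 bases around each start and the y axis the share of promoters in percent, for the 50 promoters of listed genes and all 32851 promoters. The members lie mostly to the right, around their median of 0.788, and all promoters spread down to low ratios, with a median of 0.384.

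CpG-rich promoters occurred among detected and undetected members. Among genes never above background, 5 of 11 promoters (45.5%) were CpG-rich. Among genes with a probe set above background on all 8 arrays the count was 6 of 9 (66.7%), and among the remaining members with a probe set 21 of 27 (77.8%). Promoters and not genes were counted. Otx2 gave several of the 11 and Lhx6 several of the 9, most of them not CpG-rich. These are descriptions of small sets, with no test. Many members also lie side by side. With no other coding gene between them stand Foxq1, Foxf2 and Foxc1 and Irx1, Irx2 and Irx4 on chromosome 13, Irx3, Irx5 and Irx6 on chromosome 8, Dlx1 and Dlx2 on chromosome 2, Dlx5 and Dlx6 on chromosome 6, Dlx3 and Dlx4 on chromosome 11, and Six2 and Six3 on chromosome 17. Foxf1 and Foxc2 are separated on chromosome 8 by Mthfsd alone.

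Most members gave little or no signal. A probe set was called above background on an array when it exceeded a level set by 27 unspiked Bacillus control probe sets, their 95th percentile on that array. That level was 6.65, 9.44, 6.28 and 6.82 on control arrays 1 to 4 and 9.97, 6.12, 4.09 and 5.34 on arrays 1 to 4 labelled Bmi1. Being above it says that signal was present and not that a gene is active. Member probe sets above it numbered 39, 44, 38 and 37 of 93 on the controls and 35, 47, 37 and 44 on the arrays labelled Bmi1, between 37.6% and 50.5%, whereas 68.4% to 73.4% of all single-symbol probe sets were above it. These are array signals and have no read depth. Both the number of arrays and the low signal of most members limit their precision.

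Only 14 of the 93 probe sets (15.1%) were above background on all 8 arrays, against 54.6% of all single-symbol probe sets. On no array were 21 (22.6%), against 10.8%, and the remaining 58 (62.4%, against 34.6%) were above it on 1 to 7 arrays. The count of 14 depends on the level: with the 75th percentile of the control probe sets as background it was 24. By gene, 10 of 55 (18.2%) had a probe set above background on all 8 arrays, against 60.3% of all genes. These were Lhx6, Irx3, Irx5, Msx1, Msx2, Meis1, Meis2, Foxf1, Foxf2 and Foxq1. Another 8 (14.5%, against 8.59%) had none on any array: Pax7, Lhx8, Nkx2-2, Nkx6-1, Otx2, En1, Gbx2 and Neurog2. The median member probe set had a mean signal of 6.42, against 23.3 over all.

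**Figure D2:**
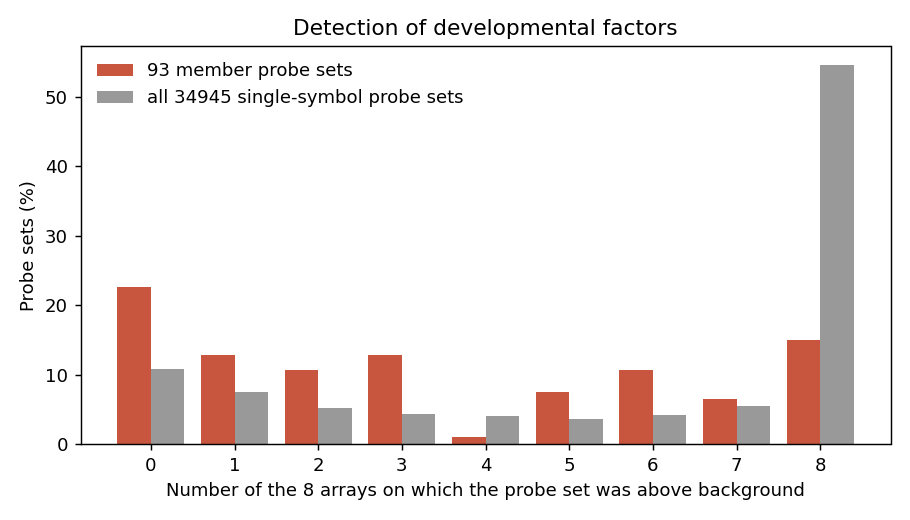
The x axis is the number of the 8 arrays on which a probe set was above background and the y axis the share of probe sets in percent, for the 93 member probe sets and all 34945 single-symbol probe sets. The members peak at 0 arrays (22.6%) and the whole array at 8 (54.6%).

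A second list of developmental factors gave a similar picture. It held 117 homeobox, forkhead, basic helix-loop-helix, T-box, GATA, Zic and AP-2 genes that are no members. Of these 103 were on the array, with 166 probe sets, of which 18 (10.8%) were above background on all 8 arrays and 39 on none. Low signal was therefore a feature of both lists.

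No member passed the test between the groups after adjustment. Of 93 probe sets, 0 passed limma at an adjusted p of 0.05 when adjusted over all 45037 probe sets, of which 4 (0.00888%) passed. With the replicate number as a block it was again 0 of 93, where 333 probe sets (0.739%) passed. At an unadjusted p under 0.05 there were 9 of 93, 2 higher and 7 lower, where 4.79% of all probe sets reached that level (4 of 93 without Bmi1 3). The block raised this to 14, 2 higher and 12 lower, against 10.5%. In signals before centring, the groups did not overlap at 3 of the 93, against 3.49% of single-symbol probe sets. That last share is near the background.

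The members' balance of lower and higher probe sets was near that of the whole array. The median log2 difference over the 93 probe sets was -0.16, with 60 lower and 33 higher (64.5% lower), and over all single-symbol probe sets it was -0.07, with 59.6% lower. By pair the members' median was -0.03, -0.28, -0.18 and 0.00 in replicates 1 to 4, so it was below -0.1 in 2 of 4 pairs. The scale of each array moved this value: it was -0.09 without centring (54 lower), -0.03 with centring on all probe sets (49 lower) and -0.03 after quantile normalization (50 lower), and without control 2 it was -0.01. The median of all single-symbol probe sets moved with it, to 0.00, 0.06 and 0.01 under the same 3 scalings. Within replicates 1 and 2 the members' median was -0.16, and within replicates 3 and 4 it was -0.10. At the 11 member probe sets given with a 95% interval below, the direction was the same within both sets of replicates. They were chosen on these same arrays for a small p or no overlap, so this follows largely from the choice. In a culture measured in bulk, fewer cells of a type and less RNA per cell cannot be told apart, here and in all that follows.

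Cell type markers were compared between the groups in the same way. Of 25 hepatocyte and hepatoblast probe sets, 21 were lower, with 6 at an unadjusted p under 0.05 in limma. With the block 1 of them was called lower. At the probe set of highest mean, 6 of 9 markers were lower, with a median log2 difference of -0.14. Their sums overlapped, at 23343 to 35324 on the controls and 21993 to 35001 on the arrays labelled Bmi1. Of 8 blood probe sets 7 were lower, and of 26 nervous system probe sets 15. Of 14 stellate cell and fibroblast markers, 12 were lower in the arrays labelled Bmi1 at the probe set of highest mean, with a median log2 difference of -0.91, and 25 of their 29 probe sets were lower. Their summed signal was 4899.5 to 15667 on the controls and 3848 to 8017 on the arrays labelled Bmi1. All 7 mesothelial markers were lower, with sums of 895 to 2126 and 1088 to 1481. Bile duct markers summed to 1478 to 2558 on the controls and 2573 to 3159 on the arrays labelled Bmi1, where control 2 and Bmi1 3 nearly met. Endothelial markers summed to 129 to 242 and 247 to 355. The groups overlapped in neither, but these sums, like the others here, were taken before centring. At the probe set of highest mean, 5 of 5 bile duct markers were higher. Of 10 endothelial markers, 7 were lower and 3 higher there, with a median log2 difference of -0.24. Of the 15 endothelial probe sets, 7 were lower and 8 higher. Of the stellate cell, mesothelial, bile duct and endothelial probe sets, 0 passed limma without the block. An unadjusted p under 0.05 was reached by 4 of 29, 2 of 12, 3 of 9 and 4 of 15 in that order. Over all probe sets 4.79% reached it. With the block 333 of all 45037 probe sets (0.739%) passed. Epcam of bile duct, Reln of stellate cells and Egfl7 of endothelium were among them, all higher (limma adjusted p = 0.0302, 0.00658 and 0.0296). Among members that mesenchyme is known to express, directions differed. Foxc1, Foxd1, Msx2 and 6 of 7 Meis probe sets were lower, and Foxf1 differed by -0.04 at 1434939_at and by -0.63 at 1423013_at. Lhx2, above background on 1 array, differed by 0.14. Foxf2 (0.38 at 1418220_at) and Lhx6 (0.88 at 1425094_a_at) were higher. Msx1 differed by 0.10 and -0.31 at its 2 probe sets. This is not a full list of such members, and Foxc1, Foxd1, Msx2 and Lhx6 had a probe set among the 10 of smallest p. The part of mesenchymal cells in these values was not tested.

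**Figure D3:**
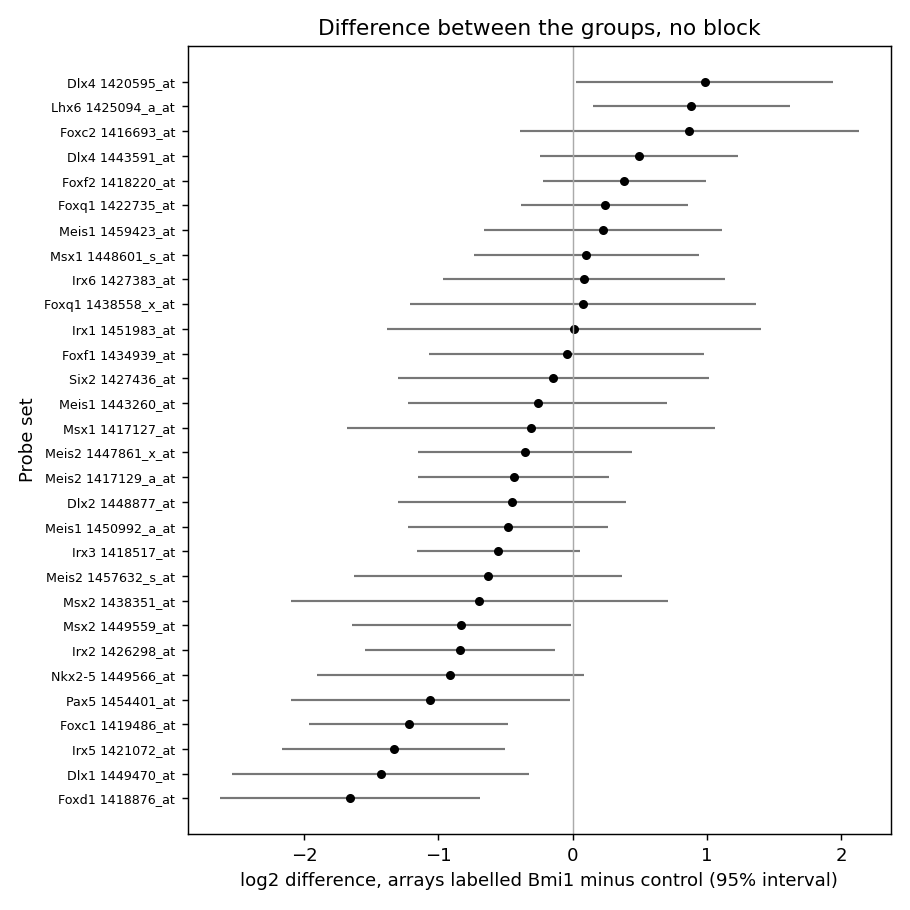
The x axis is the log2 difference, arrays labelled Bmi1 minus control, and each row is 1 of the 30 named probe sets of 22 genes, with points for the difference and bars for its 95% interval from limma without the block. Foxd1 lies furthest to the left at -1.66 and Dlx4 furthest to the right at 0.98, and no probe set passed after adjustment.

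Forkhead factors held the 2 members with the smallest p. Foxd1, a factor of kidney stroma and of the retina, read 6.11, 28.8, 16.9 and 10.3 on control arrays 1 to 4 and 5.42, 0.660, 2.83 and 0.497 on arrays 1 to 4 labelled Bmi1. The controls were above background on 3 of 4 arrays, with control 1 just under it, and the arrays labelled Bmi1 were below it on all 4, so the groups did not overlap. Its log2 difference was -1.66 (SE 0.44, 95% interval -2.63 to -0.69), a limma adjusted p of 0.512. Since the low group has only a bound, the signal there was at least 2.30-fold lower as the controls' mean over, on each array labelled Bmi1, the higher of background and the measured signal (log2 means). With the block the limma adjusted p was 0.178, in a range of 0.164 to 0.99998 over all alternatives. The difference was -1.58 within replicates 1 and 2 and -1.74 within replicates 3 and 4.

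Foxc1, needed for the anterior eye and for mesoderm of the head and vessels, had groups that did not overlap at 1 of its 2 probe sets. That one, 1419486_at, read 48.9, 47.7, 29.9 and 35.5 on control arrays 1 to 4 and 8.56, 21.1, 17.04 and 19.6 on arrays 1 to 4 labelled Bmi1. Every control was above every array labelled Bmi1, and 7 of the 8 values were above background. The log2 difference was -1.22 (SE 0.34, 95% interval -1.96 to -0.48) with a limma adjusted p of 0.557, and 0.147 with the block (range over the alternatives 0.147 to 0.99998). It was -1.66 within replicates 1 and 2 and -0.78 within replicates 3 and 4. The other probe set, 1419485_at, read 21.7, 6.76, 14.9 and 18.3 in the controls and 7.42, 10.7, 6.67 and 8.38 in the arrays labelled Bmi1, and its groups overlapped through control 2. Its difference was -0.68 with a limma adjusted p of 0.9999.

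Foxf2 and Foxq1, the neighbours of Foxc1 on chromosome 13, had overlapping groups. Foxf2, a factor of gut and palate mesenchyme, read 27.9, 40.4, 24.7 and 29.1 in the controls and 51.8, 34.7, 47.5 and 38.9 in the arrays labelled Bmi1 at 1418220_at, a difference of 0.38. The arrays labelled Bmi1 lay mostly above the controls, with overlap at control 2. Its second probe set, 1447562_at, was on no array above background. Foxq1, a factor of hair and of stomach mucous cells, read 275, 467, 146 and 90.3 in the controls and 431, 426, 122 and 117 in the arrays labelled Bmi1 at 1438558_x_at, a difference of 0.08. There replicates 1 and 2 of both groups were all above replicates 3 and 4. At 1422735_at it read 54.8, 132, 72.8 and 60.9 in the controls and 109.9, 98.04, 82.2 and 89.9 in the arrays labelled Bmi1, a difference of 0.24, with control 2 the highest array.

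Foxf1, a Hedgehog-responsive factor of visceral mesenchyme, read 37.03, 20.3, 8.99 and 17.4 in the controls and 33.8, 25.1, 11.3 and 13.8 in the arrays labelled Bmi1 at 1434939_at, and the groups overlapped (difference -0.04). Its other probe set, 1423013_at, was above background on 2 arrays and differed by -0.63. Foxc2, needed for lymphatic valves, read 22.1, 3.42, 0.584 and 4.53 in the controls and 20.1, 22.3, 10.5 and 6.57 in the arrays labelled Bmi1. It was above background on all 4 arrays labelled Bmi1 and on control 1 alone among the controls, and control 1 lay within the range of the other group. The difference of 0.87 had a limma adjusted p of 0.9999. Foxd3, a factor of neural crest, was above background on 2 arrays.

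Among the Iroquois genes, which pattern neural tube, heart and limb, Irx5 stood furthest from 0. Irx5, known for heart repolarisation and retinal interneurons, read 73.2, 79.5, 64.7 and 32.5 on control arrays 1 to 4 and 37.9, 20.01, 14.7 and 22.7 on arrays 1 to 4 labelled Bmi1. Controls 1 to 3 lay above every array labelled Bmi1, and control 4 overlapped with Bmi1 1. The array labelled Bmi1 was the lower of the pair in 4 of 4 pairs. The log2 difference was -1.33 (SE 0.38, 95% interval -2.16 to -0.50), with a limma adjusted p of 0.583 and of 0.0926 with the block, in a range of 0.0926 to 0.99998 over all alternatives. It was -1.44 within replicates 1 and 2 and -1.23 within replicates 3 and 4.

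Irx3, the neighbour of Irx5 and a partner in limb and heart patterning, read 47.5, 58.5, 89.8 and 48.9 on control arrays 1 to 4 and 39.4, 29.96, 46.9 and 52.7 on arrays 1 to 4 labelled Bmi1. Controls 2 and 3 lay above every array labelled Bmi1, and controls 1 and 4 lay among them. The difference was -0.55 with a limma adjusted p of 0.9999. Irx6, the last gene of that cluster, read 3.44, 22.8, 6.99 and 4.26 in the controls and 14.6, 11.4, 6.29 and 5.42 in the arrays labelled Bmi1, and was above background on 6 arrays with overlapping groups (difference 0.09).

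In the other Iroquois cluster, Irx1 read 9.67, 77.1, 4.14 and 13.02 in the controls and 19.6, 23.3, 11.00 and 15.8 in the arrays labelled Bmi1. One control, number 2, was far above the rest, and the difference was 0.01. Irx2, expressed in lung and neural tissue, read 9.08, 2.56, 4.77 and 7.22 in the controls and 0.867, 1.74, 0.708 and 4.16 in the arrays labelled Bmi1, with 2 controls and no array labelled Bmi1 above background. Its log2 difference was -0.84 (SE 0.32, 95% interval -1.55 to -0.13), with a limma adjusted p of 0.918. That difference is between values mostly below background, and no fold or bound is given for it. Irx4, a factor of the heart ventricle, was above background on 1 array. Of the 6 Irx probe sets, 4 were lower and 2 higher, with a median of -0.58.

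**Figure D4:**
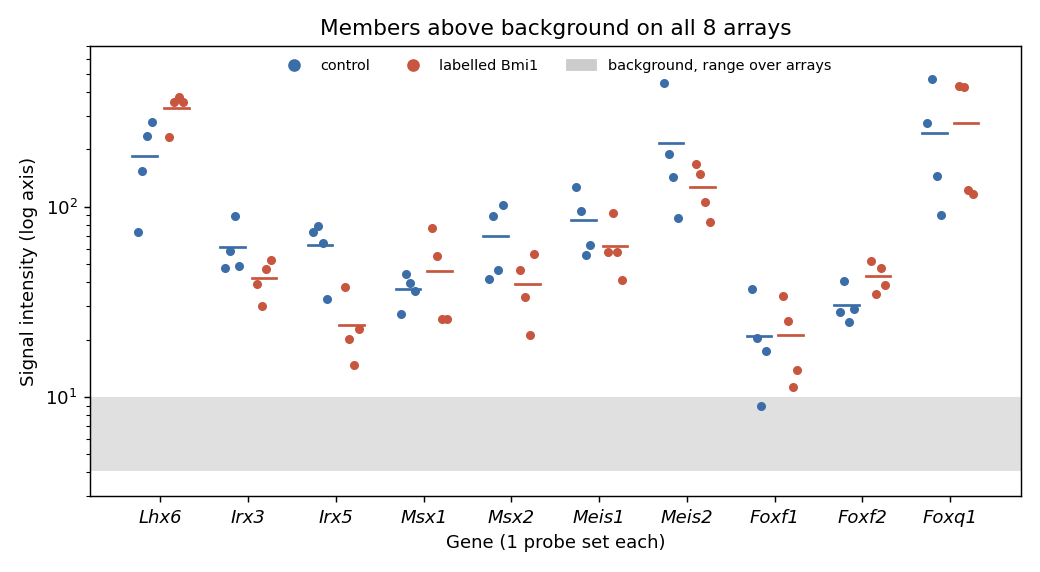
The y axis is signal intensity on a log scale, and each gene on the x axis is shown by 1 probe set, with 4 points and a mean line for the control arrays and the same for the arrays labelled Bmi1. The grey band is the range of the background level over arrays (4.09 to 9.97), and the 10 genes are those above it on all 8 arrays by each array's own level, with Irx5 mostly lower and Lhx6 mostly higher in the arrays labelled Bmi1.

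The LIM homeobox genes contributed the member with the smallest adjusted p under the block. Lhx6, a factor of cortical interneurons and of jaw mesenchyme, read 73.2, 154, 236 and 279.6 on control arrays 1 to 4 and 232, 356, 379 and 357 on arrays 1 to 4 labelled Bmi1 at 1425094_a_at. The array labelled Bmi1 was the higher of the pair in 4 of 4 pairs, but Bmi1 1 lay among the controls. The log2 difference was 0.88 (SE 0.33, 95% interval 0.15 to 1.62), with a limma adjusted p of 0.903 and of 0.0889 with the block (range over the alternatives 0.0889 to 0.99998). The difference was 1.31 within replicates 1 and 2 and 0.46 within replicates 3 and 4. Its second probe set, 1422262_a_at, read 10.2, 3.51, 14.6 and 11.7 in the controls and 9.30, 22.2, 13.5 and 15.5 in the arrays labelled Bmi1 with overlapping groups and a difference of 0.42.

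Lhx9, a LIM factor required for gonad formation, is described because of its spread, and was chosen after its values were seen. At 1429905_at it read 124, 33.3, 3.49 and 3.60 on control arrays 1 to 4 and 13.8, 5.05, 1.31 and 2.84 on arrays 1 to 4 labelled Bmi1. At 1419324_at it read 195, 24.6, 9.74 and 2.53 in the controls and 16.6, 8.72, 2.70 and 11.4 in the arrays labelled Bmi1. Control 1 was the highest array at both. The first was above background on 3 arrays and the second on 6. The differences were -1.48 (SE 0.88) and -1.14 (SE 0.91), each with a limma adjusted p of 0.9999. The latter was -2.32 within replicates 1 and 2 and 0.05 within replicates 3 and 4, so its direction was not the same in both. Lhx2, known for holding hepatic stellate cells quiescent, was above background on Bmi1 4 alone. Lhx5 was above background on 5 arrays, Lhx1 and Isl1 on 1 each, and Lhx8, a factor of cholinergic neurons, on none.

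Dlx genes, the distal-less factors of forebrain, jaw and limb, gave weak signals of at most 30.2 on any array. Dlx1, needed for forebrain interneurons, read 26.4, 10.8, 0.974 and 11.95 on control arrays 1 to 4 and 0.911, 1.62, 2.36 and 1.14 on arrays 1 to 4 labelled Bmi1. Controls 1, 2 and 4 were above background, control 3 was not, and no array labelled Bmi1 was. Its log2 difference was -1.43 (SE 0.50, 95% interval -2.53 to -0.32) with a limma adjusted p of 0.832, and as a bound the signal was at least 1.32-fold lower. Its neighbour and partner Dlx2 read 20.7, 8.51, 10.7 and 25.9 in the controls and 11.97, 10.97, 7.90 and 12.95 in the arrays labelled Bmi1, with overlapping groups and a difference of -0.45.

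Dlx4, a distal-less gene of placenta and branchial arches, was higher at both probe sets. At 1443591_at it read 3.85, 5.17, 9.15 and 8.87 on control arrays 1 to 4 and 15.4, 9.56, 9.76 and 11.9 on arrays 1 to 4 labelled Bmi1, and the groups did not overlap, though control 3 and Bmi1 2 nearly met. At 1420595_at it read 6.98, 1.39, 10.1 and 7.07 in the controls and 26.03, 7.60, 15.6 and 20.1 in the arrays labelled Bmi1, with overlap at control 3. The log2 differences were 0.50 (SE 0.34, 95% interval -0.24 to 1.23) and 0.98 (SE 0.43, 95% interval 0.03 to 1.94), with limma adjusted p of 0.9999 and 0.9999. Dlx3, its neighbour, and Dlx5 and Dlx6 were above background on 2 to 3 arrays at each of their probe sets. Over the 8 Dlx probe sets, 4 were lower and 4 higher.

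Msx1 and Msx2, effectors of bone morphogenetic protein signalling in tooth, limb and skull, were among the few steadily detected members. Msx2 read 41.8, 89.7, 46.5 and 102 on control arrays 1 to 4 and 46.2, 33.6, 21.01 and 56.4 on arrays 1 to 4 labelled Bmi1 at 1449559_at. The array labelled Bmi1 was lower in 3 of 4 pairs and the groups overlapped. The difference was -0.83 (SE 0.37, 95% interval -1.64 to -0.01), with a limma adjusted p of 0.9999. At 1438351_at Msx2 read 22.3, 57.2, 10.7 and 12.2 in the controls and 39.8, 13.4, 2.93 and 9.26 in the arrays labelled Bmi1, a difference of -0.69.

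Msx1 read 27.2, 44.1, 39.6 and 36.02 in the controls and 77.6, 55.2, 25.6 and 25.8 in the arrays labelled Bmi1 at 1448601_s_at, with the 2 highest and the 2 lowest arrays all labelled Bmi1 and a difference of 0.10. Its other probe set, 1417127_at, read 5.88, 55.1, 13.8 and 6.57 in the controls and 27.96, 12.5, 6.60 and 6.23 in the arrays labelled Bmi1, with control 2 the highest and a difference of -0.31. Within the arrays labelled Bmi1, replicates 1 and 2 were above replicates 3 and 4 at both.

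Meis1 and Meis2, cofactors that bind DNA with Hox and Pbx proteins, had 7 probe sets, of which 5 were above background on all 8 arrays. At 1457632_s_at Meis2 read 447, 189.7, 142 and 86.8 on control arrays 1 to 4 and 167, 149, 105 and 83.1 on arrays 1 to 4 labelled Bmi1. Control 1 was the highest array and the groups overlapped. The array labelled Bmi1 was lower in 4 of 4 pairs, with a log2 difference of -0.63 (SE 0.45). Its limma adjusted p was 0.9999.

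At 1417129_a_at Meis2 read 149, 62.9, 73.5 and 56.1 in the controls and 57.1, 69.3, 69.3 and 49.1 in the arrays labelled Bmi1. At 1447861_x_at it read 47.7, 37.2, 40.5 and 19.6 in the controls and 38.8, 33.97, 19.5 and 23.1 in the arrays labelled Bmi1. The groups overlapped at both, with differences of -0.44 and -0.35. Control 1 was the highest array at both. Meis1 read 127, 94.3, 55.8 and 63.2 in the controls and 57.8, 92.99, 57.5 and 41.3 in the arrays labelled Bmi1 at 1450992_a_at. At 1443260_at it read 33.5, 16.7, 14.9 and 12.7 in the controls and 29.6, 18.1, 9.84 and 10.2 in the arrays labelled Bmi1. At 1459423_at it read 18.5, 6.17, 6.87 and 6.77 in the controls and 16.5, 13.4, 9.19 and 8.88 in the arrays labelled Bmi1. The differences were -0.48, -0.26 and 0.23, and control 1 was again the highest control array at each. Over the 7 Meis probe sets, 6 were lower and 1 higher, with a median of -0.35.

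The Pax genes, paired-box factors of eye, muscle, kidney, thyroid and B cells, were seldom detected. Of their 17 probe sets, 0 were above background on all 8 arrays and 8 on none. No Pax signal exceeded 26.1. Pax5, the B cell factor, read 15.7, 26.1, 13.4 and 10.3 on control arrays 1 to 4 and 8.48, 14.8, 1.33 and 4.10 on arrays 1 to 4 labelled Bmi1 at 1454401_at. All controls were above background and 1 of 4 arrays labelled Bmi1 was, and the groups overlapped through Bmi1 2. The log2 difference was -1.06 (SE 0.47, 95% interval -2.10 to -0.02), with a limma adjusted p of 0.9999. Pax3, Pax6, Pax8 and Pax9 were above background on 2 to 5 arrays at most, and Pax7, a factor of muscle stem cells, on none.

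Nkx2-5, the heart factor, read 13.6, 19.8, 10.3 and 16.2 on control arrays 1 to 4 and 1.64, 13.3, 3.33 and 13.3 on arrays 1 to 4 labelled Bmi1. All 4 controls and 2 arrays labelled Bmi1 were above background. Its groups overlapped, with a log2 difference of -0.91 (SE 0.45, 95% interval -1.90 to 0.08) and a limma adjusted p of 0.9999. Nkx2-2 and Nkx6-1, which specify ventral spinal cord and pancreatic beta cells, were above background on no array. Six2, which maintains nephron progenitors, read 15.3, 18.5, 10.2 and 11.8 in the controls and 21.3, 24.6, 1.83 and 15.3 in the arrays labelled Bmi1. The groups overlapped, Bmi1 3 was the lowest array, and the difference was -0.14. Six3, its neighbour and a factor of forebrain and eye, was above background on 6 arrays at most, and Six6 on 1.

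The remaining members were at or near background. Pitx1, Pitx3, Otx1 and Otx2, of hindlimb, lens, dopamine neurons and the anterior head, had 5 probe sets and signals of up to 16.03. Emx1, Emx2, En1, En2 and Gbx2, which lay out cortex, midbrain and hindbrain, had 6 probe sets, of which 3 were above background on no array, and signals of up to 14.6. Neurog2 and Neurod1, the proneural factors, did not pass background on more than 1 array at any probe set. Cdx2, the intestinal master regulator, chosen after its values were seen, read 0.857, 23.8, 12.3 and 25.2 in the controls and 9.66, 7.60, 0.906 and 1.47 in the arrays labelled Bmi1 at 1422075_at, with 3 of 4 controls and 1 of 4 arrays labelled Bmi1 above background, and was on no array above it at the other probe set. Its limma adjusted p was 0.9999.

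Hand2, a factor of heart and limb, was chosen after its values were seen, for its spread. It read 56.5, 81.04, 11.1 and 5.35 on control arrays 1 to 4 and 0.905, 52.9, 9.30 and 7.17 on arrays 1 to 4 labelled Bmi1 at 1436041_at. Controls 1 and 2 and Bmi1 2 were high, and the other 5 arrays lay lower. The difference was -1.12 (SE 0.86) with a limma adjusted p of 0.9999.

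Markers of mesenchymal cells varied over the same arrays. All 14 stellate cell and fibroblast markers were on the array, 9 of them above background on all 8 arrays, and Lrat, which defines quiescent stellate cells, on none. The sum of their signals was 15667, 8584, 5823 and 4899.5 on control arrays 1 to 4 and 4395, 8017, 5838 and 3848 on arrays 1 to 4 labelled Bmi1. Among them Col1a2, a fibrillar collagen chain, read 3343, 1290.2, 198 and 54.9 in the controls and 173, 867, 146 and 174 in the arrays labelled Bmi1. Control 1 was the array highest in 3 of 4 Lhx9 probe sets, in all 4 Meis2 probe sets and in the summed markers, and it also had the highest Gapdh ratio. At 1431598_a_at Lhx9 read 18.9, 21.7, 1.48 and 4.84 in the controls and 9.65, 5.08, 2.62 and 5.36 in the arrays labelled Bmi1, with control 2 the highest. At 1436041_at Hand2 was high on control 1, control 2 and Bmi1 2, the 3 arrays with the highest summed markers. Its other probe sets did not share this pattern. At 1422221_at Hand2 was above background on control 2 and Bmi1 3 alone, and at 1443854_at on control 2 alone. The part of these cells in the Lhx9, Meis2 and Hand2 signals was not tested. Of the 7 mesothelial markers, 5 were above background on all 8 arrays and 0 on none.

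**Figure D5:**
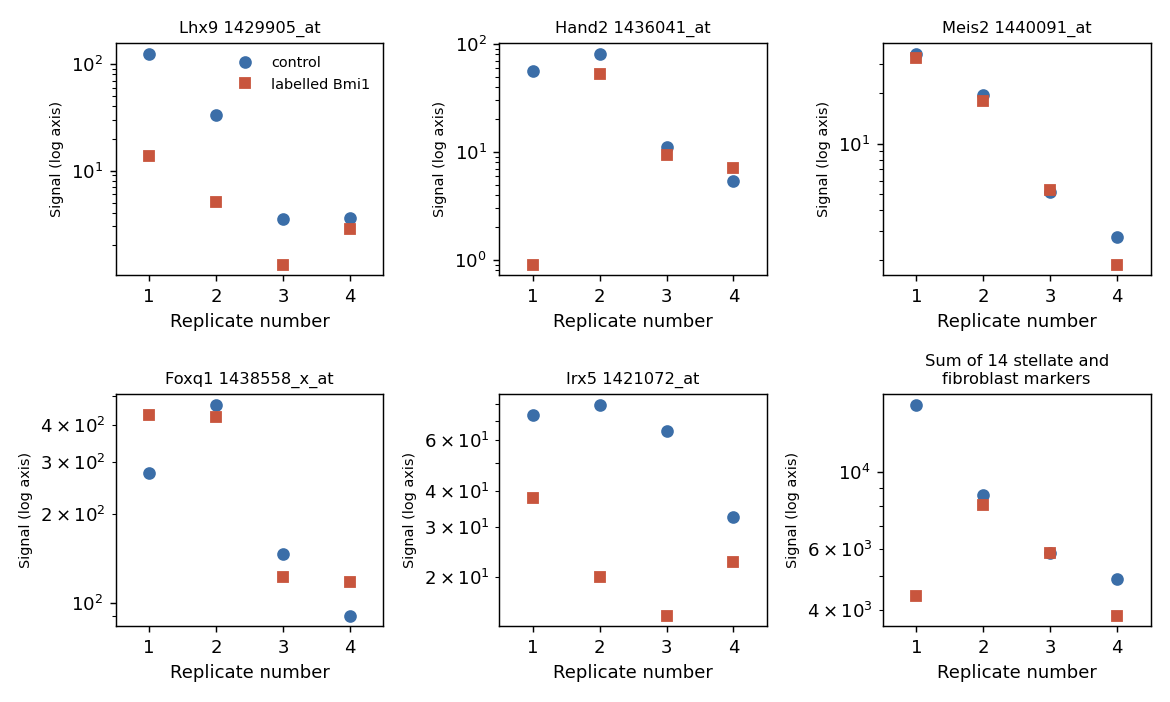
Each panel has the replicate number on the x axis and signal on a log y axis, with circles for control arrays and squares for arrays labelled Bmi1, for 5 member probe sets and the sum of the 14 stellate cell and fibroblast markers. Lhx9, Meis2 and the marker sum are highest on control 1, Meis2 and Foxq1 are higher in replicates 1 and 2 of both groups, and Irx5 is lower in the array labelled Bmi1 in each pair.

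Replicates 1 and 2 were compared with replicates 3 and 4, with 2 arrays of each group on either side, because they stood apart. This comparison was added after the data had been seen. Of the members, 7 probe sets were called lower in replicates 3 and 4 and 0 higher in limma with the group as a term. Over all probe sets 9.48% were called lower and 3.85% higher, so the share of members called lower was near the background.

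The Foxq1 probe set 1438558_x_at had the smallest adjusted p, with a log2 difference, replicates 3 and 4 minus 1 and 2, of -1.81 (SE 0.19) and limma adjusted p = 0.00140. In replicates 3 and 4 it read 90.3 to 146 in the controls and 117 to 122 in the arrays labelled Bmi1, against 275 to 467 and 426 to 430.5 in replicates 1 and 2. Meis2 read 34.4, 19.6, 5.14 and 2.76 in the controls and 32.6, 18.1, 5.26 and 1.88 in the arrays labelled Bmi1 at 1440091_at, where every array of replicates 1 and 2 was above every array of replicates 3 and 4. It was called lower there (limma adjusted p = 0.00647), but only 1 of the 4 arrays of replicates 3 and 4 was above background, so the fitted difference of -2.07 rests on values below it. At 1457632_s_at, above background on all 8 arrays, Meis2 fell by 1.14. Lhx9 at 1429905_at was below background on all 4 of these arrays and on 1 of replicates 1 and 2, so it was at least 4.48-fold lower there (limma adjusted p = 0.0229). Msx2 fell by 1.57 at 1438351_at, with 3 of 4 of these arrays above background, Meis1 by 0.80 at 1450992_a_at and Foxf1 by 1.07 at 1434939_at.

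These calls depended on the scale. The members' median was -0.40 against -0.21 for all single-symbol probe sets, but 0.13 against 0.32 with centring on all probe sets. Only Foxq1 1438558_x_at and Meis2 1440091_at were called lower under all 4 scalings tried. With centring on all probe sets, Lhx6 1425094_a_at, Irx3 and Pitx3 were called higher in replicates 3 and 4 (log2 1.23, 0.84 and 1.57), and Lhx9, Foxq1 and Meis2 1440091_at lower. After quantile normalization Pitx3 was the 1 member called higher. The difference between the groups was also compared between the same sets of replicates: the interaction called 0 of 45037 probe sets in limma, with 1504 at an unadjusted p under 0.05, and 7 members were among these.

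Of the second list of developmental factors, none of 166 probe sets passed without the block. An unadjusted p under 0.05 was reached by 15, where 4.79% of all probe sets reached it. With the block 1 of the 166 rose and 0 fell, a share near the 0.739% of all probe sets that passed. The 1 that rose was Tbx1, the T-box factor of pharyngeal arches. It read 2.02, 8.92, 28.6 and 56.4 on control arrays 1 to 4 and 65.9, 60.9, 236 and 162 on arrays 1 to 4 labelled Bmi1. Every array labelled Bmi1 was above every control, with a log2 difference of 2.50 (SE 0.65, 95% interval 1.06 to 3.94), a limma adjusted p of 0.502 and 0.0139 with the block, in a range of 0.0139 to 0.99998 over all alternatives. The next by p were Tal1, the blood stem cell factor, at -1.69 (limma adjusted p = 0.517), and Pdx1, of pancreas and duodenum, at -1.40. The list had 106 probe sets lower and 60 higher, with a median of -0.14, close to the members' -0.16.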

How the data were processed

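The deposited values were signal intensities on a linear scale for 45101 probe sets on each of 8 arrays, per the series' value table. Which software the authors used was not given in the sources used here. After trimming 2% at each end, the mean was 100 on every array, so a global scaling had been applied per array. Of the probe sets, 64 were controls, 34945 had 1 symbol in the platform annotation, 932 had several and 9160 are unnamed here.

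Values were taken as log2(value + 3.78) and centred on each array's median over 10916 genes above the 40th percentile of mean signal. The groups were compared in limma 3.58.1 (R 4.3.3), with an intensity trend, two-sided, over 45037 probe sets, with Benjamini-Hochberg adjustment and a threshold of 0.05. Folds of dim genes are understated on this scale. Other settings were the replicate number or the replicate sets 1 and 2 against 3 and 4 as a block, other scalings, pseudocounts of 1 and 16, a level filter, array weights, no trend, 1 probe set per gene, other backgrounds and leaving out each array. The scripts were tested on simulated data.

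Arrays with the same number deviated together from their group means (correlations 0.53, 0.49, 0.50 and 0.68), so the numbers were taken to pair the arrays. Arrays of different numbers within replicates 1 and 2 or within 3 and 4 correlated too (0.48 and 0.12, 0.36 and 0.28), so part of this is shared by the replicate set. That the arrays came from separate animals is not stated, and p-values measure the spread between these 8 arrays.

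Values on every array are printed for members above background on all 4 arrays of a group, or on at least 3 arrays with groups that do not overlap, or called, for Bmi1 and Tbx1, and for Lhx9, Hand2, Cdx2 and the marker Col1a2, which were chosen after their values were seen. Differences with SE and interval are printed for those called or without overlap and for the 10 probe sets of smallest p. The members, lists and rules were chosen with earlier results of these data known. Promoter counts used Python 3.11.15 with pandas 2.3.3 and numpy 2.4.6, and figures used matplotlib 3.10.9.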

Additional observations from a re-analysis of the deposited data

Results flagged for a closer look

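Among 60 groups of 4 arrays examined for the named probe sets, 2 held an array far from the other 3, and chance alone gives about 3 by this criterion. At Lhx6 1425094_a_at, Bmi1 1 read 232 where the other arrays labelled Bmi1 read 356 to 379, and its gap to the nearest was 0.891 of the group's range. At Meis1 1459423_at, control 1 read 18.5 where the other controls read 6.17 to 6.87, a gap of 0.962 of the range.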

How the results depend on the processing

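The number of member probe sets called was 0 in every setting tried, with 9 at an unadjusted p under 0.05 in limma without a block and 4 to 14 over the other settings. Over all probe sets the count of 4 moved with the setting. The replicate block, which uses the pairing, gave 333 calls, and a block for replicates 1 and 2 against 3 and 4 gave 121. Without centring there were 7, with centring on all probe sets 11, after quantile normalization 8, with a level filter 7, with array weights 21 and with 1 probe set per gene and a level filter 18. Leaving out 1 array gave 0 to 13 calls, 13 without control 4 and 0 without control 2, control 3, Bmi1 2 or Bmi1 3, and the cause was not tested. The count of 14 members above background on all 8 arrays became 24 with the 75th percentile of the control probe sets as background. The 11 member probe sets given with a 95% interval kept their direction in all settings that tested them. They were chosen on the same arrays for a small p or no overlap, so this lends the differences no support. The number of arrays and the low signal of most members, near background, limit what could be detected.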
